A study of Mus musculus with 14 samples.

Results

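Extracellular purine signalling was described here through 10 genes, chosen as a set for sensing and breakdown of ATP, ADP and adenosine: the receptor genes P2ry1, P2ry14, P2ry10, P2rx4, P2rx7, Adora2a and Adora2b and the enzyme genes Entpd1, Nt5e and Ada. P2ry14 and P2ry10 were included as P2Y family members, although their receptors are known for UDP-glucose and lysophosphatidylserine. All 10 were found among the 22598 genes of the deposited tables, and all 10 passed the filter on low counts that left 11591 genes for testing. RNA came from CD4 T cells of C57BL/6J mice that were sorted from spleen as naive cells and then activated and driven towards the T helper 2 (Th2) type in culture. The 4 groups were wild type at day 7 (4 libraries), knockout of Ago1, Ago3 and Ago4 at day 7 (4 libraries), wild type at day 14 (3 libraries) and the same knockout at day 14 (3 libraries). The series text names littermate wild-type and knockout mice. It gives no age and does not say which cells the deletion covers or which exons it removes. It also gives another day for the later time, and the day of the sample titles was used. Ago1, Ago3 and Ago4 encode argonaute proteins, which bind microRNAs, and the remaining Ago2 was present in every library.

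ATP and ADP leave activated or dying cells and are read by P2X channels, which open on ATP, and by P2Y receptors, which signal through G proteins. The ectoenzyme CD39 (Entpd1) cuts ATP and ADP to AMP, CD73 (Nt5e) cuts AMP to adenosine, and adenosine deaminase (Ada) turns adenosine into inosine. Adenosine acts on T cells through the receptors encoded by Adora2a and Adora2b, both coupled to cyclic AMP production and known for restraining T cell activation, while P2X4 and P2X7 are known for carrying autocrine ATP signals in activated T cells.

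Library totals ran from 23326248 to 35803197 counts. Ago1 had 67 to 141 reads in each wild-type library and 0 to 2 in each knockout library, so its counts match the labels; Ago3 was at 1.21 to 2.16 CPM in knockout and 2.04 to 4.43 CPM in wild type, and Ago4 was higher in knockout (2.38 to 4.76 CPM) than in most wild-type libraries (0.358 to 2.81 CPM), which checks nothing as long as the deleted exons are unknown. CPM values are counts scaled to a common library total, with totals corrected by the trimmed mean of M values (TMM). The T cell markers were present throughout (Cd4 315 CPM on average), as was Gata3 (514 CPM), but Il13 had only 17 reads in total. Of the CD8 genes, Cd8a had 28 reads in all libraries together, but Cd8b1 had 4599 (11.2 CPM on average). Group means of Cd8b1 were 7.96 CPM in wild type and 14.8 CPM in knockout at day 7, and 7.34 and 14.5 CPM at day 14. Library 3 of wild type at day 14 stood apart from its group (mean correlation 0.918), as did, less so, library 4 of knockout at day 7 (0.969), and counts of calls are also given without both. From lane and library numbers in the identifiers of the deposited tables, 2 sequencing runs were inferred, split where the lane numbers restart. On that reading all knockout libraries of day 7 came from one and all knockout libraries of day 14 from the other. Wild type had libraries of both days in both. The labels tie no library to a mouse or culture of its own, so the p-values may measure technical spread only.

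Of the 10 genes, 9 had an annotated start in the RefSeq promoter table (GRCm38.p6), with 15 windows in all. The 250 bases before the start are shown for the 3 genes that carry the main changes over time, P2ry1 at chr3:61002535-61002784, Adora2b at chr11:62248734-62248983 and the upstream start of Entpd1 at chr19:40612116-40612365, all on the plus strand. Capitals mark matches, on either strand, to any of 6 short motifs. These were the motif of the Gata factors, spelled AGATAA, the short cAMP response site, spelled TGACG, the hypoxia response core, spelled ACGTG, the NFAT core, spelled GGAAA, the AP-1 site, spelled TGANTCA, and the GC box, spelled GGGCGG.
P2ry1: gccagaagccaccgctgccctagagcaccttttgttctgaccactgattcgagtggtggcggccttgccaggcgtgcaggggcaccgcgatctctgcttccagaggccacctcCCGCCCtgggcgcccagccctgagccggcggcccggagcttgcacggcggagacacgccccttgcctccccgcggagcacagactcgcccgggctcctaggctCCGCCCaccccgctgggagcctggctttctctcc
Adora2b: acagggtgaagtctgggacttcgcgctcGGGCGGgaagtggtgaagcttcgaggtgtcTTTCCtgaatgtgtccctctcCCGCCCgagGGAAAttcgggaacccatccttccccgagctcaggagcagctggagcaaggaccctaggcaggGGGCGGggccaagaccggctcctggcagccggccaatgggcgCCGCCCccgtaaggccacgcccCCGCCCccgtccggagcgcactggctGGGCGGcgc
Entpd1: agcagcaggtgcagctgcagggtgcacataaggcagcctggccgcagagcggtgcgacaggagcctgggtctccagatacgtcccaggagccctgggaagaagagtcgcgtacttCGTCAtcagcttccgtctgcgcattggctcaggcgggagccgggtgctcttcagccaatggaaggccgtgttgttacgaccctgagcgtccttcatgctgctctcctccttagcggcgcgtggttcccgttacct
No matches overlapped in these windows. The P2ry1 window held 2 GC boxes and no other match, the Adora2b window 6 GC boxes and 2 NFAT cores, and the Entpd1 window 1 short cAMP response site. Over all 32851 windows of this length in the table, 32.7% held a GC box, 55.6% an NFAT core, 17.8% the short cAMP response site, 16.6% the hypoxia response core, 9.99% the Gata factor motif and 6.75% the AP-1 motif. The 3 windows were rich in G and C (70.8%, 69.6% and 62.4%, in the order shown, against a median of 52.4% over all windows). A match is a run of letters, not a shown binding site.

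Most calls among the 10 genes were over time, as they were among all genes tested. Over all genes, 2375 were called over time in wild type and 1792 in knockout, against 11 and 165 between genotypes at days 7 and 14. In wild type, Adora2b and Entpd1 rose and P2ry1 fell from day 7 to day 14, beside 13.2% of all genes called higher and 7.33% lower. In knockout, Adora2b, Entpd1, P2rx7 and Nt5e rose and P2ry1 fell, beside 10.5% and 4.92%. Between genotypes, P2ry1 alone was called, higher in knockout at day 14. A gene was called at a Benjamini-Hochberg adjusted p under 0.05 over all 11591 genes, by edgeR's quasi-likelihood test on the counts of all 14 libraries.

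**Figure D1:**
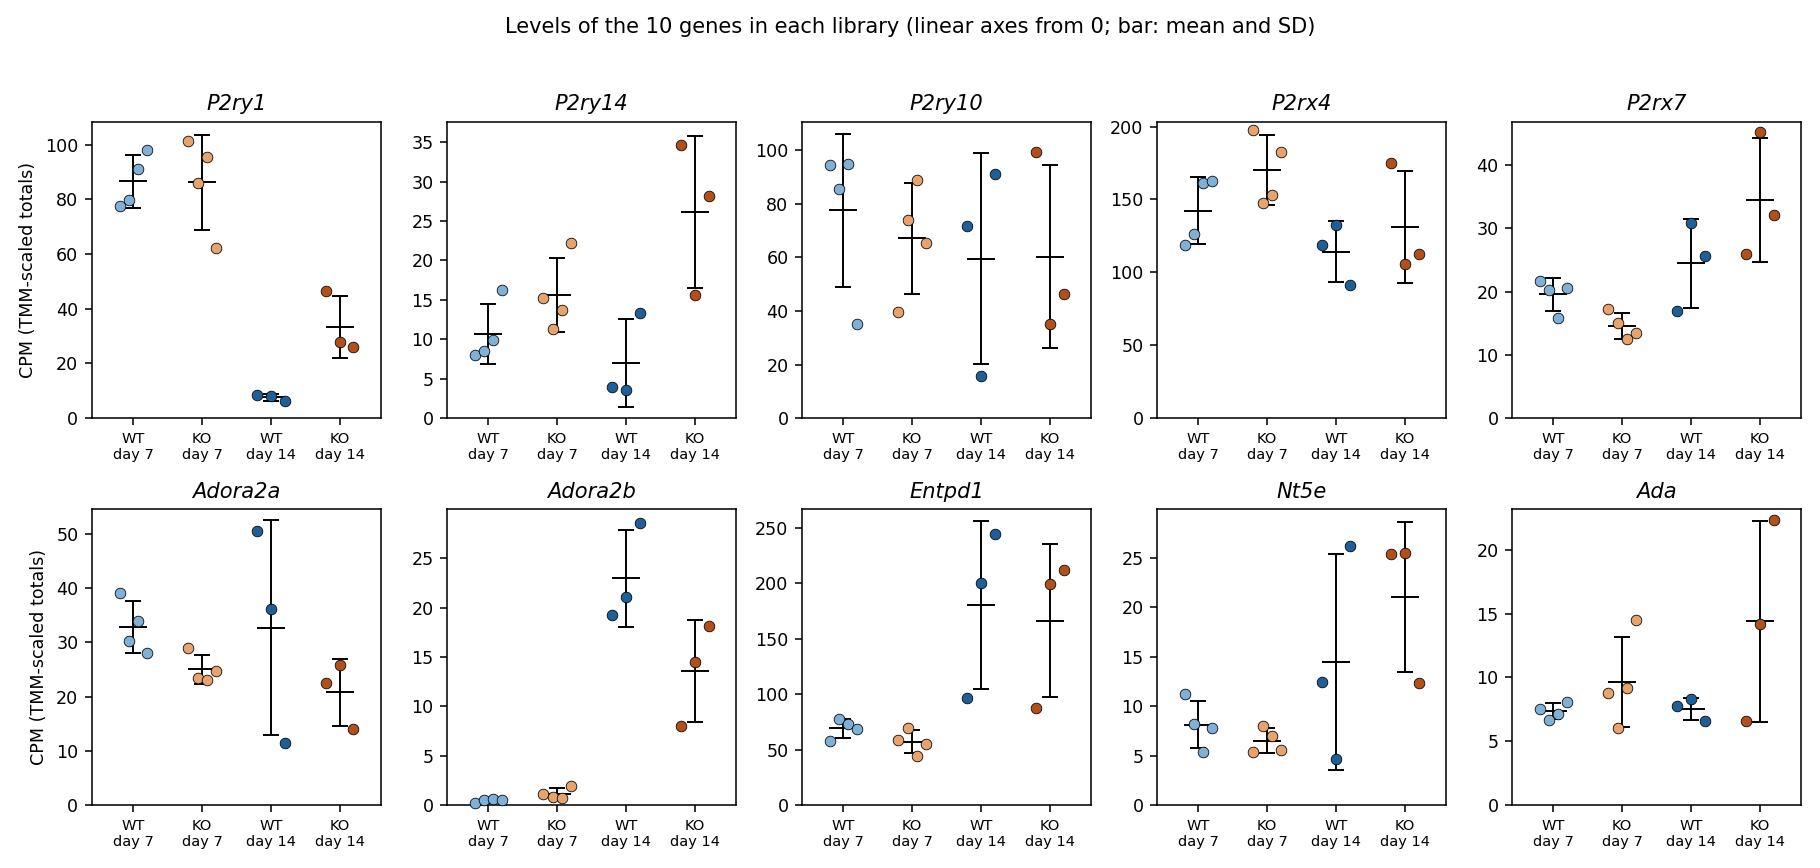
CPM of the 10 genes in each library, by group (points: libraries; bar: mean and SD, n = 4 at day 7 and n = 3 at day 14; linear axes from 0). P2ry1 sits between 6.06 and 8.44 CPM in wild type at day 14 and between 26.1 and 46.5 CPM in knockout, and Adora2b is near 0 in all 8 libraries of day 7.

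At day 7, 0 of the 10 genes were called between genotypes, against 0.0949% of all genes tested (6 higher and 5 lower in knockout). At an unadjusted p under 0.05, edgeR had 2716 genes, among them 1 of the 10, Adora2b; DESeq2, an alternative count test, called 468 genes and 1 of the 10, again Adora2b, and limma-voom 13 and 0. At day 14, 1 of the 10 was called against 1.42% of all genes. The interaction, which asks whether the genotype difference at day 14 differs from that at day 7, was called for 1 of the 10, P2ry1, against 0.0863% of all genes. From day 7 to day 14 in wild type, 2 of the 10 were higher against 13.2% of all genes, and 1 was lower against 7.33%. In knockout, 4 of the 10 were higher against 10.5%, and 1 was lower against 4.92%. The median log2 difference of the 10 genes was -0.11 at day 7, 0.35 at day 14, 0.38 for the interaction, 0.02 over time in wild type and 0.66 over time in knockout, where the medians over all genes tested were -0.01, 0.01, 0.06, -0.002 and 0.02. The comparisons share groups of libraries, so their values are set side by side and not correlated.

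Without the 2 libraries that stood apart, a setting chosen after seeing the data, 3 of the 10 were called at day 14 (P2ry1 and P2ry14 higher, Adora2a lower) against 25.9% of all genes, 2 in the interaction (P2ry1 and P2ry14) against 2.85%, 4 over time in wild type (2 higher and 2 lower) against 32.6%, and 5 over time in knockout (4 higher and 1 lower) against 21.2%. At day 7 the count was still 0.

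**Figure D2:**
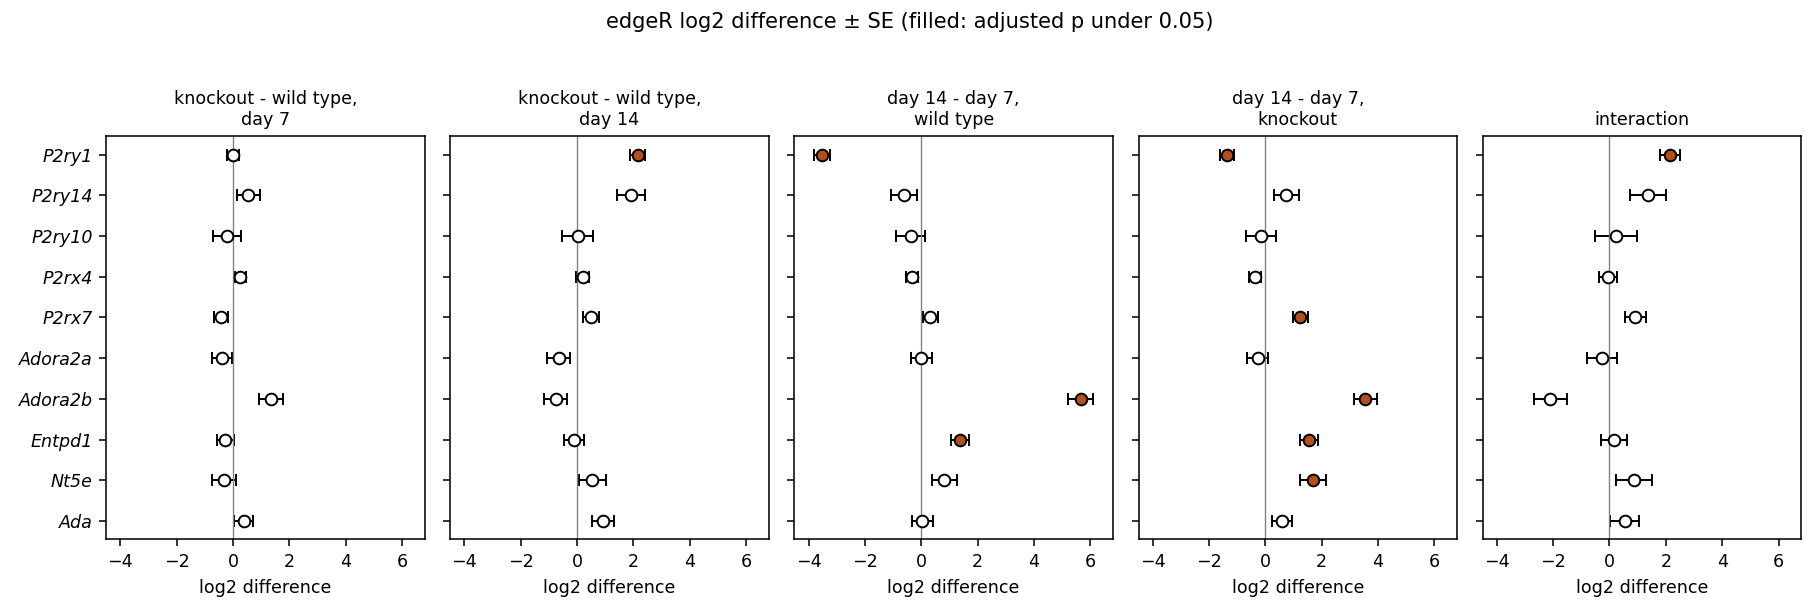
Log2 difference ± SE of the 10 genes in the 5 comparisons, by edgeR over all 14 libraries (filled points: adjusted p under 0.05). P2ry1 at day 14 (2.14) and in the interaction (2.15) are the filled points among the genotype comparisons, and Adora2b has the highest values over time (5.65 in wild type, 3.55 in knockout).

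P2ry1 (ENSMUSG00000027765, chr3:61002795-61008982, plus strand) encodes the ADP receptor P2Y1. In wild type at day 7 it was at 77.6, 79.6, 91.2 and 98.0 CPM in libraries 1 to 4, and in knockout at day 7 at 101.2, 85.9, 95.4 and 62.1 CPM. At day 14 it was at 8.44, 8.18 and 6.06 CPM in wild type and at 46.5, 27.6 and 26.1 CPM in knockout. The genotypes overlapped at day 7 and did not overlap at day 14, and both groups of day 14 lay below every library of day 7. The fall over time was 11.5-fold in wild type (log2 difference -3.52 ± 0.28 SE, edgeR adjusted p = 4.03e-06) and 2.58-fold in knockout (-1.37 ± 0.25, adjusted p = 0.0020). Knockout was 4.42-fold higher than wild type at day 14 (log2 difference 2.14 ± 0.27, adjusted p = 0.00177), against a log2 difference of -0.01 ± 0.22 at day 7 (adjusted p = 0.989). The interaction was 2.15 ± 0.35 on the log2 scale (adjusted p = 0.0370).

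The wild-type fall kept its call in all 17 alternatives run, with a log2 difference of -3.60 to -3.22. Within the 2 runs it was -3.43 (1 library of day 7 against 2 of day 14) and -3.44 (3 against 1). The day 14 difference was 2.16 within the one run that held both genotypes (2 wild-type and 3 knockout libraries), was called in 15 of 16 alternatives, and lost its call (2.09, adjusted p = 0.231) when only the day 14 libraries were fitted, a fit that called 0 genes in all (1113 at an unadjusted p under 0.05). The interaction was called in 10 of 23 alternatives. It missed the threshold without 10 of the 14 libraries, taken singly (every one except wild-type day 14 library 3, knockout day 7 library 4 and knockout day 14 libraries 1 and 3), at adjusted p up to 0.112; over all 14 such fits the log2 value ran from 1.84 to 2.30. With the run as a term it was 2.26 (adjusted p = 0.123), and with trends over GC content and coding length removed 1.74 (0.0972). The knockout fall was -1.17 with the run term (adjusted p = 0.0995).

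Summed levels of some marker lists for other cells or states changed alongside P2ry1, and their part in its differences was not tested. A sum follows its most abundant genes and need not show the list as a whole. The 7 mast cell and basophil genes, in which Cpa3 led, summed to 31.0 to 65.1 CPM in wild type and 47.6 to 82.3 CPM in knockout at day 7, and to 1.17 to 5.76 CPM in wild type and 22.5 to 129.8 CPM in knockout at day 14. Most of that sum was Cpa3 (44.0 CPM on average, Kit 2.84). At day 7 Kit and Tpsb2 were lower in knockout (means of 1.14 and 0.172 CPM, against 3.47 and 0.796 in wild type). Tpsb2, Fcer1a and Gata2 had 0 reads in knockout at day 14. At day 14, 2 of the 3 tested genes of that list were called higher in knockout (Cpa3 and Kit), against 1.42% of all genes called in either direction, while the basophil and mast cell genes Mcpt8 and Ms4a2 were at 0 reads in every library. The 6 naive T cell genes summed to 5078 to 6744 CPM at day 7, and at day 14 to 526 to 1667 CPM in wild type and 988 to 1847 CPM in knockout, where Dapl1 was called higher. The sums of day 14 overlapped, and Dapl1 was low (means of 0.0924 CPM in wild type and 1.45 CPM in knockout). Lef1 and Tcf7 were lower in knockout at day 14 (means of 255 and 120 CPM, against 283 and 142 in wild type). The median log2 difference of the 6 genes at day 14 was 0.55. The 8 Th2 genes, led by Il4ra, summed at day 14 to 6297 to 8178 CPM in wild type and 2207 to 4908 CPM in knockout, where Il4ra was called lower. That sum was mostly Il4ra (3070 CPM on average, Gata3 514). Over the 7 tested genes of the list the median log2 difference between genotypes at day 14 was 0.10. Platelets are a classical site of this receptor, and the 6 platelet and red cell genes together stayed at or below 2.34 CPM in every library, with Ppbp at 0, although the hemoglobin gene Hba-a1 was called higher in knockout at day 14. Marker genes named for a call, other than Cpa3, Il4ra and Hba-a1, were chosen after their values were seen. So were those named for going against the sum of their list. In bulk RNA, fewer cells that carry a transcript and less of it in each cell cannot be told apart. An antisense gene, Gm37035, overlaps the start of P2ry1 and no source used here says whether counting used the strand, so reads of the pair cannot be separated there.

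P2ry14 (ENSMUSG00000036381, chr3:59113855-59153618, minus strand) encodes the UDP-glucose receptor. It was at 8.05, 8.49, 9.90 and 16.3 CPM in wild type and at 15.2, 11.3, 13.8 and 22.3 CPM in knockout at day 7. At day 14 it was at 3.98, 3.51 and 13.4 CPM in wild type and at 34.7, 15.6 and 28.2 CPM in knockout. The genotypes did not overlap at day 14, although wild-type library 3 came close to the lowest knockout library. The difference over time was -0.62 ± 0.46 on the log2 scale in wild type and 0.74 ± 0.45 in knockout, neither called. Between genotypes it was 0.55 ± 0.42 at day 7 (edgeR adjusted p = 0.439). The interaction was 1.36 ± 0.64 (adjusted p = 0.629), so the genotype differences at days 7 and 14 were not shown to differ. The log2 difference at day 14 was 1.91 ± 0.50 and missed the threshold (edgeR adjusted p = 0.0678). It passed in 7 of 16 alternatives, with adjusted p from 0.00153 to 0.470 and log2 values from 1.59 to 2.81, among them the fit without wild-type day 14 library 3 (2.81, adjusted p = 0.00205), DESeq2 (1.91, 0.00485) and limma-voom (2.10, 0.0270). P2ry14 lies inside Med12l on the opposite strand, and Med12l itself had 0 to 53 reads per library, against 105 to 1174 for P2ry14.

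P2ry10 (ENSMUSG00000050921, chrX:107088492-107104974, plus strand) encodes a receptor for lysophosphatidylserine, placed with the P2Y family by sequence. It was among the more abundant of the 10 genes, and its spread within groups was wide. The libraries of wild type were at 94.6, 85.7, 94.8 and 35.3 CPM at day 7 and at 71.9, 15.6 and 91.4 CPM at day 14, and those of knockout at 39.8, 74.1, 89.1 and 65.6 CPM and at 99.3, 35.2 and 46.4 CPM. Every pair of groups overlapped and no comparison was called, with log2 differences from -0.38 to 0.23 and SEs of 0.48 to 0.74. Its coding sequence had the lowest GC content of the 10 genes (0.438 as a fraction). A near copy, P2ry10b, lies 44.0 kb away and had 3 to 111 reads per library, and reads of the pair could have been split between them.

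The ATP-gated channel genes P2rx7 (ENSMUSG00000029468, chr5:122643911-122691432) and P2rx4 (ENSMUSG00000029470, chr5:122707544-122729738) are neighbours on the plus strand of chromosome 5, 16.1 kb apart. P2rx4 was at 119 to 163 CPM in wild type and 147 to 198 CPM in knockout at day 7, and at 91.2 to 132 CPM and 106 to 175 CPM at day 14. Within each day and within each genotype its groups overlapped, and it was called in no comparison, with log2 differences between -0.38 ± 0.22 (over time in knockout) and 0.26 ± 0.20 (knockout at day 7).

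P2rx7, whose channel can also open a large pore on prolonged ATP, was at 21.7, 20.2, 15.8 and 20.5 CPM in wild type and 17.2, 15.0, 12.5 and 13.4 CPM in knockout at day 7. At day 14 it was at 17.0, 30.9 and 25.6 CPM in wild type and 25.9, 45.2 and 32.1 CPM in knockout. In knockout every library of day 14 was above every library of day 7, and in wild type the days overlapped. It rose 2.37-fold in knockout (log2 difference 1.24 ± 0.25, edgeR adjusted p = 0.0039) and its wild-type difference was 0.33 ± 0.25 (adjusted p = 0.405). These 2 changes were not shown to differ, since the interaction was 0.92 ± 0.36 with adjusted p = 0.515. In knockout, day and run coincide; with a run term, which wild type informs, the rise was 1.39 (adjusted p = 0.0642).

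Adora2b (ENSMUSG00000018500, chr11:62248984-62266453, plus strand) encodes the adenosine receptor of lower affinity. At day 7 it had 7, 16, 19 and 12 reads in the wild-type libraries (0.195, 0.520, 0.607 and 0.502 CPM) and 26, 24, 25 and 44 reads in the knockout libraries (1.12, 0.811, 0.783 and 1.95 CPM). At day 14 it was at 19.3, 21.1 and 28.6 CPM in wild type and at 8.04, 14.5 and 18.2 CPM in knockout. The genotypes did not overlap at either day, with knockout above wild type at day 7 and below it at day 14. The rise over time was 50.4-fold in wild type (log2 difference 5.65 ± 0.46, edgeR adjusted p = 4.03e-06) and 11.7-fold in knockout (3.55 ± 0.42, adjusted p = 0.00012). Both rises were called in all 17 alternatives. Within the 2 runs the wild-type difference was 5.12 (3 libraries of day 7 against 1 of day 14) and 6.49 (1 against 2).

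The genotype differences of Adora2b missed the threshold at day 7 (1.35 ± 0.41, adjusted p = 0.154), at day 14 (-0.76 ± 0.41, adjusted p = 0.297) and for the interaction (-2.10 ± 0.58, adjusted p = 0.244). DESeq2 called the day 7 difference (1.38, adjusted p = 0.0429) and the interaction (-2.15, 0.0269); over all alternatives the adjusted p ran from 0.0429 to 0.487 at day 7 and from 0.0269 to 0.600 for the interaction. The wild-type levels of day 7 rest on 54 reads in all.

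Adora2a (ENSMUSG00000020178, chr10:75316877-75334784, plus strand) encodes the adenosine receptor best known from T cells. It was at 39.1, 30.3, 33.9 and 28.0 CPM in wild type and 28.9, 23.5, 22.99 and 24.7 CPM in knockout at day 7, and at 50.5, 36.2 and 11.5 CPM and 22.6, 25.9 and 14.0 CPM at day 14. Wild-type library 3 of day 14 was the lowest of the 14 libraries, and with it all groups of day 14 overlapped. No comparison was called: the log2 differences ran from -0.65 ± 0.40 (knockout at day 14, edgeR adjusted p = 0.348) to -0.004 ± 0.37 (over time in wild type). Without that library the day 14 difference was -1.06 (adjusted p = 0.016). Of the summed RPKM of the 2 receptor genes, Adora2b made up 0.612% to 2.17% in wild type and 4.03% to 8.88% in knockout at day 7, and 32.0%, 41.8% and 75.4% in wild type and 30.5%, 40.9% and 61.6% in knockout at day 14. RPKM, the authors' deposited value, is used wherever genes are compared with each other. It is scaled by a deposited width, which is near the coding length for P2ry1 (1122 against 1119 bases) but not for P2ry10 (987 against 1178). The library total behind it exceeds the counts, which made up 38.9% to 44.9% of it.

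Entpd1 (ENSMUSG00000048120, chr19:40612366-40741602, plus strand), the gene of CD39, rose over time in both genotypes. It was at 57.7, 78.0, 72.8 and 68.4 CPM in wild type and 59.2, 69.4, 44.5 and 55.6 CPM in knockout at day 7, and at 96.4, 200.3 and 244 CPM and 87.6, 199.6 and 212 CPM at day 14. Every library of day 14 was above every library of day 7, with library 1 of each genotype well below the other two. The rise was 2.60-fold in wild type (log2 difference 1.38 ± 0.32, edgeR adjusted p = 0.00712) and 2.91-fold in knockout (1.54 ± 0.32, adjusted p = 0.0048). The genotypes differed by -0.28 ± 0.30 at day 7 and by -0.12 ± 0.34 at day 14, neither called, and the interaction was 0.16 ± 0.46. The wild-type rise was called in all 17 alternatives. Within the 2 runs it was 1.41 (1 library of day 7 against 2 of day 14) and 1.46 (3 against 1). The knockout rise was 1.83 with the run term (adjusted p = 0.0598).

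Nt5e (ENSMUSG00000032420, chr9:88327197-88372092, plus strand), the gene of CD73, was lower than Entpd1 in RPKM in every library. It was at 11.2, 8.23, 5.43 and 7.77 CPM in wild type and 5.34, 8.04, 7.05 and 5.62 CPM in knockout at day 7, and at 12.4, 4.71 and 26.2 CPM and 25.4, 25.5 and 12.3 CPM at day 14. In knockout the days did not overlap, and in wild type library 2 of day 14 was the lowest of all. It rose 3.23-fold in knockout (log2 difference 1.69 ± 0.45, edgeR adjusted p = 0.0203), and its wild-type difference was 0.82 ± 0.45 (adjusted p = 0.226). The interaction was 0.87 ± 0.64 (adjusted p = 0.865). The wild-type difference was 1.24 and called without library 2 of day 14 (edgeR adjusted p = 0.0331), and 0.067 without library 3. The knockout call was lost without knockout library 1 or 4 of day 7 or library 2 of day 14 (adjusted p up to 0.0783), and with the run term the difference was 0.39 (adjusted p = 0.754). Nt5e made up 2.17% to 21.5% of the summed RPKM of the pair Entpd1 and Nt5e over the 14 libraries, with no order by group: 6.58% to 15.5% in wild type at day 7, 7.85% to 13.02% in knockout at day 7, 2.17% to 10.8% in wild type at day 14 and 5.21% to 21.5% in knockout at day 14.

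Ada (ENSMUSG00000017697, chr2:163726584-163750239, minus strand) was at 7.55, 6.64, 7.15 and 8.11 CPM in wild type and 8.78, 6.05, 9.21 and 14.5 CPM in knockout at day 7, and at 7.77, 8.28 and 6.61 CPM and 6.59, 14.2 and 22.3 CPM at day 14. The wild-type libraries lay close together at both days, and the knockout libraries spread more widely and overlapped them. No comparison was called. The difference at day 14 was 0.93 ± 0.39 (edgeR adjusted p = 0.191).

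Summed levels of some marker lists rose over time and those of others did not, and their part in the rises described above was not tested. The 7 natural killer and cytotoxic genes, led by Gzmb, summed to 13.9 to 79.6 CPM at day 7, and at day 14 to 318 to 5176 CPM in wild type and 2806 to 12264 CPM in knockout, with Ncr1 at 0 reads in every library. Klrd1 of that list fell over time, from a mean of 4.50 to 0.607 CPM in wild type and from 9.81 to 1.84 CPM in knockout. The 9 myeloid and macrophage genes, led in RPKM by Adgre1 and Mgl2, summed to 2.87 to 5.77 CPM in wild type and 9.93 to 17.4 CPM in knockout at day 7, and to 10.3 to 32.1 CPM and 17.8 to 28.8 CPM at day 14. Itgam and Mpeg1 were at 0 reads. Over the tested myeloid genes the median log2 difference over time was 2.04 in wild type and -1.41 in knockout. The 5 regulatory T cell genes, in which CD39 and CD73 are often found, summed to 736 to 2323 CPM at day 7 and 1967 to 4058 CPM at day 14, mostly from Tnfrsf18, while Foxp3 had 477 reads over all 14 libraries. The 6 B cell genes summed to at most 4.21 CPM, with Ebf1 at 0 reads. The 2 CD8 genes, led by Cd8b1, did not overlap between genotypes, with 6.67 to 10.2 CPM in wild type and 10.5 to 21.0 CPM in knockout at day 7, and 6.32 to 7.92 CPM and 11.4 to 20.6 CPM at day 14. The 9 general T cell genes, led in RPKM by Cd3d, did not overlap either, with 5087 to 5903 CPM in wild type and 6206 to 8894 CPM in knockout at day 7, and 5413 to 5957 CPM and 6052 to 7552 CPM at day 14. Cd4 went the other way at day 14, at 309 to 395 CPM in wild type and 145 to 231 CPM in knockout. The 8 dendritic and MHC class II genes, led by H2-Ab1, summed to 6.40 to 21.8 CPM in wild type and 20.4 to 118 CPM in knockout at day 7, and to 22.0 to 31.8 CPM and 11.9 to 27.4 CPM at day 14, with Itgax, Flt3 and Xcr1 at 0 reads.

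Ordered by mean RPKM, P2rx4 came first in wild type at day 7 (49.7), knockout at day 7 (58.2) and knockout at day 14 (50.3), and Entpd1 came first in wild type at day 14 (48.7). At day 7 the order in wild type was P2rx4, P2ry10 (32.2), P2ry1 (31.5), Entpd1 (17.3), Adora2a (10.9), P2ry14 (4.16), P2rx7 (4.14), Ada (2.84), Nt5e (1.93) and Adora2b (0.186). The ranges of P2ry10 and P2ry1, of P2ry14 and P2rx7, and of Ada and Nt5e overlapped, and the other neighbours in that order did not. Knockout at day 7 differed from it in 2 swaps of neighbours with overlapping ranges, P2ry1 (30.9) before P2ry10 (27.3) and Ada (3.599) before P2rx7 (3.02), and Adora2b was last there too (0.460).

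At day 14 the order in wild type was Entpd1, P2rx4 (42.6), P2ry10 (26.8), Adora2a (11.4), Adora2b (10.1), P2rx7 (5.56), Nt5e (3.73), Ada (3.12), P2ry14 (2.98) and P2ry1 (2.94), and only Adora2b and P2rx7 were neighbours with ranges apart. In knockout it was P2rx4, Entpd1 (44.5), P2ry10 (27.5), P2ry1 (13.4), P2ry14 (11.1), P2rx7 (7.90), Adora2a (7.57), Adora2b (5.94), Ada (5.89) and Nt5e (5.49), and every pair of neighbours overlapped. P2ry1 thus went from above 80.8% of tested genes to above 36.6% in wild type, and from 80.3% to 63.2% in knockout. Adora2b went from above 11.3% to above 58.0% in wild type, and from 18.2% to 47.9% in knockout.

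**Figure D3:**
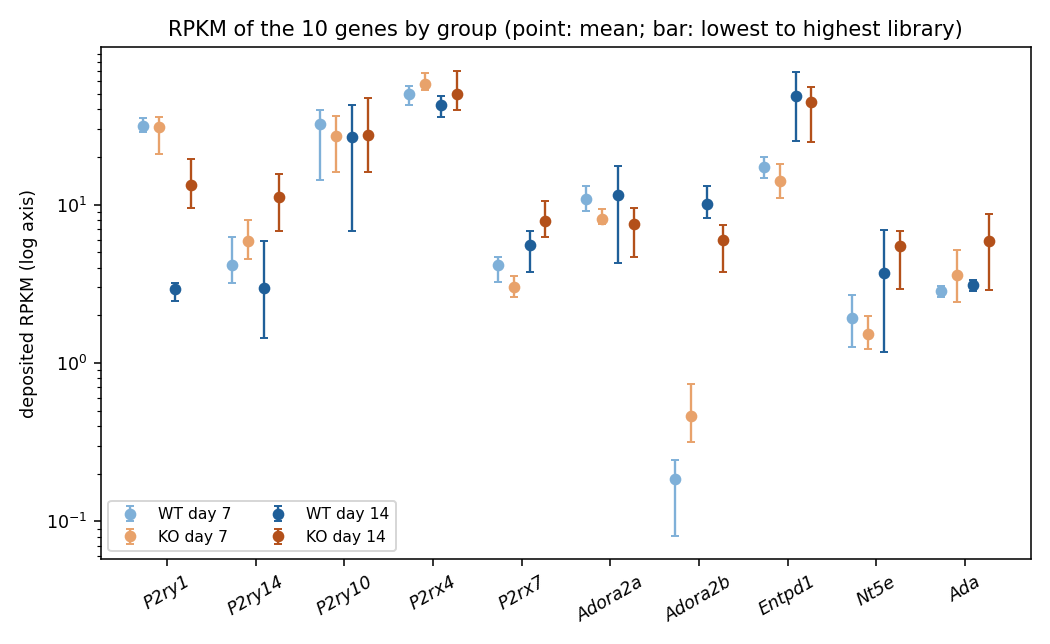
Deposited RPKM of the 10 genes by group on a log axis (points: means; bars: lowest to highest library; n = 4 at day 7 and n = 3 at day 14). Adora2b spans the widest range, from 0.186 in wild type to 10.1 between the days, while P2rx4 stays between 42.6 and 58.2 in the group means.

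Over the 14 libraries, the named genes whose log2 CPM followed P2ry1 most closely, of 8224 compared, were Elovl7 (Pearson r 0.981), Gramd3 (0.980) and Clybl (0.979). For Adora2b they were Bace2 (0.992), Metrnl (0.990) and Phlda3 (0.986), and for P2rx7 they were Ncapd2 (0.932), Incenp (0.927) and Cntrob (0.905). The libraries share their groups, depth and base composition in these values, so the correlations describe the pattern only. Among the 10 genes themselves, taking each library's deviation from its group mean, the highest correlation was between P2ry1 and P2rx4 (0.691) and the lowest between P2ry14 and Adora2a (-0.749), each over 14 libraries that share depth and scaling.

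The wider purine machinery was followed in 69 further genes, of which 67 were in the tables and 43 were tested. None of the 5 other P2X receptors and neither of the other adenosine receptors (Adora1 and Adora3) passed the count filter, so the 10 genes held every tested member of those families; the highest reads among them were 45 over all libraries, of Adora3. Of 6 other P2Y receptors, P2ry10b and P2ry2 were tested, and P2ry4 and P2ry6 had 0 reads. Between genotypes, 0 of the 43 were called at day 7, at day 14 or in the interaction. DESeq2 called 1 at day 7 and 0 in the other comparisons. Without the 2 libraries that stood apart, 9 were called at day 14: Ampd1, Ampd3, Adal, Hprt and Nt5c2 higher and Adcy7, Ampd2, Cant1 and Pde4a lower, against 25.9% of all genes. These 9 were named after their values were seen.

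Over time in wild type, 5 of the 43 rose and 11 fell (median log2 difference -0.18), where 13.2% of all genes tested were called higher and 7.33% lower, and in knockout 3 rose and 5 fell (median -0.04), where 10.5% were called higher and 4.92% lower. The purine salvage list had the steepest falls. Adk, adenosine kinase, which turns adenosine back into AMP, fell from 555 to 84.2 CPM in wild type (log2 difference -2.72 ± 0.43, edgeR adjusted p = 0.000578) and from 641 to 93.9 CPM in knockout (-2.77 ± 0.43, adjusted p = 0.000764). The AMP deaminase genes Ampd1 and Ampd3 fell by 4.37 and 3.23 in wild type and by 2.18 and 1.57 in knockout on the log2 scale, from low levels of 1.65 and 6.29 CPM in wild type at day 7. Ahcy, which splits adenosylhomocysteine, rose by 1.25 in knockout. Nt5c, a nucleotidase inside the cell, had the highest RPKM of the list (197 on average) and was not called.

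Of the 5 other surface genes tested, Entpd3 rose in both genotypes, Entpd2 rose and Art2b fell in wild type, and the others were not called. Entpd3, which cuts nucleoside tri- and diphosphates at the surface, went from 0.241 to 2.17 CPM in wild type (log2 difference 3.16 ± 0.60, edgeR adjusted p = 0.00201) and from 0.658 to 2.31 CPM in knockout (1.83 ± 0.56, adjusted p = 0.0405), and Entpd2 rose by 2.15 in wild type. Both were far below Entpd1. Art2b, a surface ADP-ribosyltransferase known for gating P2X7, fell by 0.84 in wild type, but with GC and coding length trends removed its difference was -0.09 (adjusted p = 0.903), and it was called in 9 of 17 alternatives. Dpp4, which binds adenosine deaminase at the surface in human cells, was the highest of its list in RPKM (11.2) and was not called. Among the intracellular nucleoside diphosphatases, Entpd5 fell by 1.66 in wild type and by 0.72 in knockout, Entpd7 rose by 1.06 in wild type, and Entpd6 was the highest in RPKM (29.7).

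P2ry2, the receptor of ATP and UTP, rose in both genotypes from almost nothing, 7 reads over the 4 wild-type libraries and 4 over the 4 knockout libraries of day 7 against 58 and 55 over 3 libraries each at day 14 (log2 difference 3.41 ± 0.99 and 3.82 ± 1.07). Of the transporters, Slc28a2 and Slc29a3 fell in wild type by 1.44 and 0.80, and Slc29a1, the equilibrative nucleoside transporter with the highest RPKM of its list (47.4), was not called. In the cAMP list, which lies downstream of the adenosine receptors, 1 of 17 rose and 4 fell in wild type, beside 13.2% and 7.33% of all genes. The phosphodiesterase genes, whose enzymes break down cyclic AMP, moved both ways: Pde4a rose by 2.30, and Pde3b, Pde7a, Pde4b and Pde4d fell by 1.41, 1.21, 1.01 and 0.87. In knockout only Pde4b was called, and it fell by 1.51. Gnai2 led that list in RPKM (659).

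**Figure D4:**
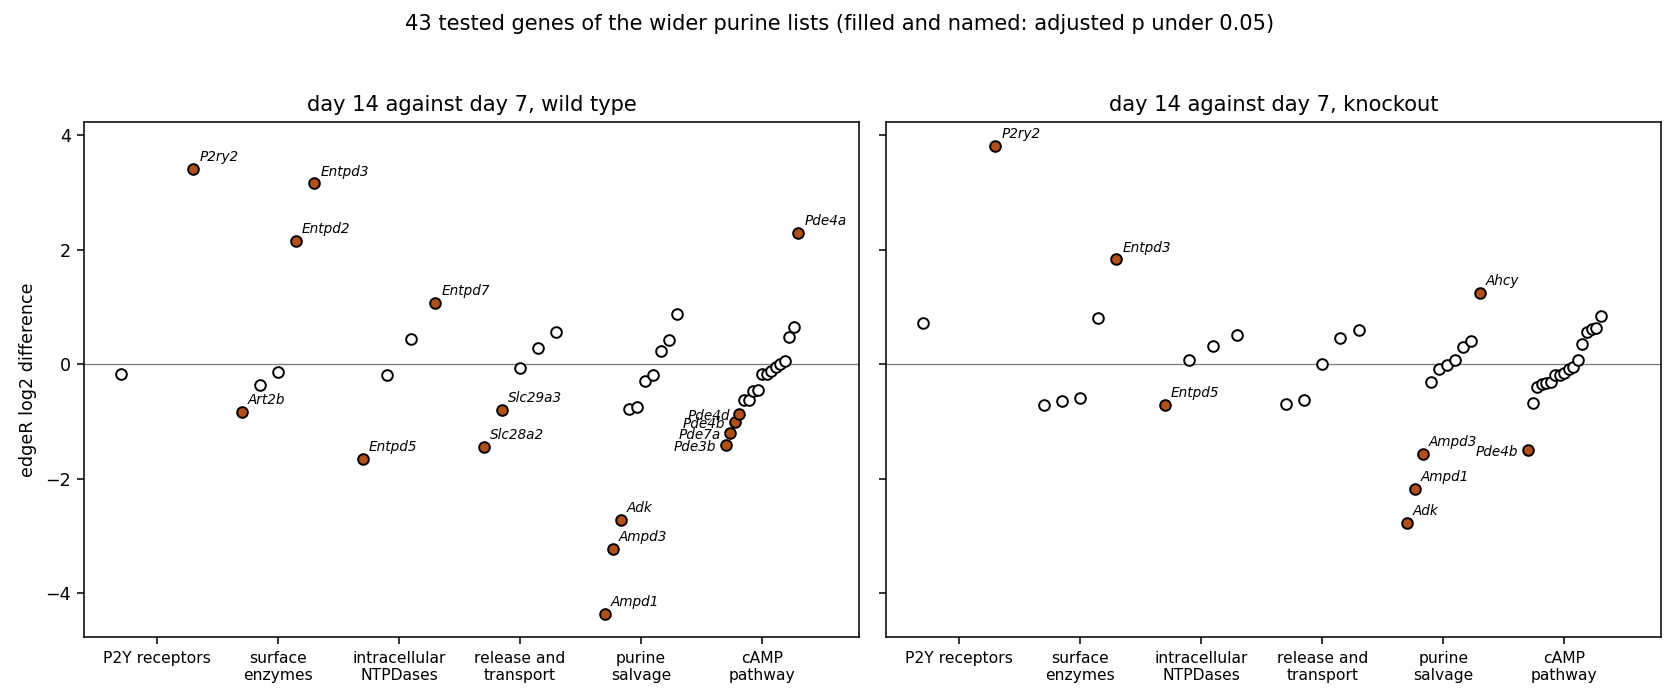
Log2 difference of day 14 against day 7 for the 43 tested genes of the wider purine lists, wild type on the left and knockout on the right (filled and named: edgeR adjusted p under 0.05). Adk lies at -2.72 in wild type and -2.77 in knockout, and the called phosphodiesterases lie on both sides of 0 in wild type.

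Of the 16 wild-type calls among these genes, 8 were kept in every alternative run (Entpd3, Entpd5, Entpd7, Slc28a2, Adk, Ampd1, Ampd3 and Pde4a). The other 8 were each lost without 3 to 6 of the 7 libraries compared, taken singly. Over the alternatives the wild-type difference of Ampd1 ran from -8.64 to -3.81 and that of Pde7a from -1.42 to -0.79. Of the 8 knockout calls Adk alone was kept in every alternative, 6 were lost without 4 to 6 of 7 libraries, and Pde4b was lost with the run term (adjusted p = 0.0638).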

How the data were processed

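RNA was sequenced from 14 libraries in 4 groups. The deposited tables give, per library, read counts per gene as whole numbers, and RPKM values that the authors computed from them. Alignment used GSNAP on GRCm38, per the submitters' processing notes. No source used here gives the counting tool, its annotation or its strand setting. Of the 22598 gene identifiers in the tables, 22457 were matched to a symbol in the reference gene tables and 141 stayed unnamed. Genes were kept by edgeR's filterByExpr (11591), totals were scaled by TMM, and the quasi-likelihood test of edgeR 4.0.16 (R 4.3.3) was fitted over all 4 groups with 5 contrasts and Benjamini-Hochberg adjustment over all genes tested. The SE is the log2 difference divided by the square root of F. The common biological coefficient of variation was 0.354. CPM levels are given for groups and RPKM for comparisons between genes. The script was tested on simulated data with known changes.

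The 10 genes, the wider purine lists and the marker lists were chosen with earlier results of these data known. Named genes were all 10 members, of each purine list every called gene and the one with the highest mean RPKM, of each marker list the gene with the highest mean RPKM and those at 0 reads, and, for the 3 members with the smallest adjusted p, the 3 genes with the highest correlation among those of at least 5 CPM. Marker genes that went against the sum of their list were named after their values were seen. Alternatives were DESeq2 1.42.0 and its size factors, limma-voom (limma 3.58.1), no filter and a stricter filter, only the compared libraries and a replicate block. Further ones were a term for the sequencing run, inferred from lane and library numbers in the identifiers, and removal of trends over GC content and coding length. Each library was also left out in turn, and, chosen after seeing the data, both libraries that stood apart were left out. Promoter sequences came from RefSeq (GRCm38.p6) and gene positions from the GRCm38 annotation. Data of naive cells were not analysed here. The calls of 1 other marker gene are not reported here.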

Additional observations from a re-analysis of the deposited data

Results flagged for a closer look

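P2ry10 in wild-type library 4 of day 7 was at 35.3 CPM, far from the other libraries of its group, the nearest of which was at 85.7 CPM; the gap was 0.846 of the group's whole range. The check was made in 20 groups of 4 libraries, and chance picks out about 1 in 20. The genotype difference of P2ry1 differed between the days, with an interaction of 2.15 on the log2 scale (edgeR adjusted p = 0.0370), and the alternatives under which it missed the threshold are given with the gene above.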

How the results depend on the processing

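Calls over time in wild type were the steadiest among the 10 genes, with 3 to 4 called without any single library, and calls between genotypes depended on the test and on single libraries. For knockout against wild type at day 14, 165 genes and 1 of the 10 were called; the fit of only the compared libraries called 0 and 0, DESeq2 993 and 2, limma-voom 420 and 2, the run term 79 and 1, removal of GC and length trends 541 and 2, and leaving out both libraries that stood apart 2998 and 3. For the interaction (10 and 1), DESeq2 called 163 and 2, the run term 1 and 0, GC and length removal 78 and 0, and leaving out both libraries 330 and 2. At day 7 (11 and 0) DESeq2 called 468 and 1. Over time, GC and length removal called 3842 genes in wild type and 3356 in knockout, leaving out both libraries 3776 in wild type, and the run term 370 and 1 of the 10 in knockout, against 2375 and 1792. Higher genes made up 37.4% of DESeq2's interaction calls against 70.0%, and with GC and length removal 43.5% in wild type over time against 64.2%, 42.0% in knockout against 68.2% and 44.9% in the interaction; without both libraries they made up 49.3% in wild type over time. The GC and length removal moved the median of all genes by -0.124 in wild type and -0.171 in knockout. Without single libraries, calls ran from 42 to 2656 at day 14 (members 1 to 3), from 1 to 390 in the interaction (0 to 2), from 1061 to 2295 over time in knockout (4 to 5), from 1726 to 3511 in wild type and from 8 to 10 at day 7; the highest at day 14 and in the interaction came without wild-type library 3 of day 14. The labels do not say whether replicate numbers pair the samples. Same-numbered libraries correlated in their deviations at -0.12, 0.42, -0.09 and 0.27 at day 7 and 0.19, 0.35 and 0.05 at day 14. Differently numbered ones ran from -0.40 to 0.44 at day 7 and from -0.40 to 0.23 at day 14. Deviations from the mean of 3 or 4 libraries depend on each other, so these values cannot decide on a pairing. The replicate block called 2 of the 10 at day 14 (P2ry14 added, 2.03), 0 in the interaction (P2ry1 2.15, adjusted p = 0.0671) and 4 over time in knockout (Nt5e 1.65, adjusted p = 0.0605). Differences that changed sign were uncalled and small. P2ry1 at day 7 was 0.017 with DESeq2 size factors and with DESeq2, 0.0048 with no filter, 0.00027 with the stricter filter, 0.0056 with only the compared libraries, 0.12 without both libraries and -0.094 to 0.14 without single ones. Adora2a over time in wild type was 0.016 with DESeq2 size factors, the stricter filter and DESeq2, 0.40 without both libraries and -0.46 to 0.40 without single ones. P2ry10 at day 14 was -0.035 with only the compared libraries, -0.17 with the run term, -0.34 with GC and length removal and -0.55 to 0.46 without single libraries. With the run term, P2ry10 and Nt5e at day 7 were 0.086 and 0.0094, and P2ry10 and P2rx4 in the interaction -0.25 and 0.14. With GC and length removal, the interactions of P2ry10, P2rx4, Adora2a and Entpd1 were -0.040, 0.013, 0.043 and -0.093, and Ada over time in wild type was -0.20; Entpd1 at day 14 was 0.17 without both libraries. Without single libraries the interactions ran from -0.34 to 0.67 for P2ry10, from -0.32 to 0.078 for P2rx4, from -0.67 to 0.20 for Adora2a and from -0.14 to 0.47 for Entpd1; over time P2ry10 ran from -0.83 to 0.073 in wild type and from -0.72 to 0.12 in knockout, and Ada from -0.033 to 0.13 in wild type; at day 14 P2rx4 ran from -0.063 to 0.34 and Entpd1 from -0.42 to 0.19. The causes of these changes were not tested. Low counts limit Adora2b at day 7, and 3 libraries per group limit day 14.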
